A study of Mus musculus with 18 samples.

Results

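The unfolded protein response and the integrated stress response were followed in mouse liver through 40 genes, chosen by name from the known pathway. Earlier results of these data were known when they were chosen. All 40 were present among the 15052 genes of the deposited table and all were tested. They comprised 9 stress sensors and transcription factors, 8 genes of endoplasmic reticulum-associated degradation (ERAD), 15 chaperones and folding enzymes, 2 subunits of the Sec61 translocon and 6 genes of the ATF4 and CHOP arm. Liver RNA was sequenced from 18 mice, of which 4 WT and 5 *Apoe* KO (KO) mice were pair-fed and 5 WT and 4 KO mice were EtOH-fed. WT animals were C57BL/6J, and the KO animals carried a germline knockout of *Apoe*, so that the knockout is not specific to the liver or to macrophages. At 10 to 12 weeks of age and after 5 days of acclimation, EtOH-fed mice received a liquid diet containing 5% ethanol for 10 days and a gavage of 5 g/kg ethanol on day 11, whereas pair-fed mice received a control liquid diet and 9 g/kg dextrin maltose. Livers were taken 9 h after the gavage. Each sample is whole liver from 1 mouse, so that the number of cells of a type and the RNA per cell cannot be told apart.

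Proteins that enter the endoplasmic reticulum are folded there by chaperones such as BiP (encoded by *Hspa5*), and proteins that fail to fold are moved back to the cytosol and degraded by ERAD. Misfolded protein activates the sensors IRE1 (*Ern1*), PERK (*Eif2ak3*) and ATF6. ATF6 is cut by proteases and then switches on chaperone genes, IRE1 splices the *Xbp1* mRNA, whose product switches on ERAD and secretory genes, and PERK phosphorylates the initiation factor eIF2α, which favours translation of ATF4. Other eIF2α kinases, which sense amino acid shortage, haem deficiency or double-stranded RNA, feed into the same ATF4 step, and this wider network is called the integrated stress response. Hepatocytes secrete most plasma proteins and depend heavily on this machinery. The sensors act through cleavage, splicing and phosphorylation, none of which is measured by mRNA level per gene, and spliced *Xbp1* is not separated from total *Xbp1* here.

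The values are read counts per gene that the authors had brought to almost the same sum (32267493 to 32292618 per mouse) and rounded. Library depth was therefore estimated from the spacing of low values, which was resolved in 16 of 18 mice. It was not resolved in EtOH-fed WT mice 2 and 5. In the alternative runs by voom, their scaled values were used in place of estimated reads. Estimated reads on genes ranged from 5.6 to 29.1 M in pair-fed WT, from 8.52 to 44.3 M in pair-fed KO and from 24.6 to 52.2 M in 3 EtOH-fed WT mice. They reached 45.9 M in EtOH-fed KO mouse 1 and 7.88 to 13.5 M in the other 3 of its group. *Apoe* itself was at 611230 to 798431 in WT and at 8586 to 108651 in KO mice, without overlap. The labels list all mice as female, but EtOH-fed KO mouse 1 had an *Xist* value of 826, against 15227 or more in every other mouse, and a *Ddx3y* value of 1077, against 118 or less. Results that rest on this mouse are given with and without it. Between the EtOH-fed groups, 4.25% of the 15052 genes were higher in KO mice and 0.445% were lower, by limma on log2(value + 1) with an adjusted p under 0.05.

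The ATF6 pathway is known for the ER stress element (ERSE), in which CCAAT is followed after 9 bases by CCACG. Promoters of RefSeq (GRCm38.p6, 250 bases before to 50 bases after the start) matched 35 of the 40 genes, and 9 of these 35 (25.7%) held an ERSE on either strand, against 0.137% of all 27025 genes with a promoter in the set. The matches are shown because *Derl3*, *Hspa5*, *Hsp90b1* and *Creld2* are among the genes that carry them. *Sdf2l1* and *Pdia4* held no match in this window. Each line reads 5′ to 3′ along the gene's own strand, with 12 flanking bases on each side and the ERSE in capitals. A match that opens with CGTGG lies on the opposite strand. No match overlapped another of the motifs searched.
*Derl3*, chr10:75893230-75893272 (+): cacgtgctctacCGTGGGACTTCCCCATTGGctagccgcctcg
*Creld2*, chr15:88819508-88819550 (+): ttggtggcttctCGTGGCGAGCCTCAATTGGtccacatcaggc
*Hspa5*, chr2:34772013-34772055 (+): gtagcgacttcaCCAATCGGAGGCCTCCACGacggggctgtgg
*Hsp90b1*, upstream match, chr10:86705626-86705668 (-): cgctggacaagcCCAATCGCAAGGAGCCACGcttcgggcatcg
*Hsp90b1*, downstream match, chr10:86705521-86705563 (-): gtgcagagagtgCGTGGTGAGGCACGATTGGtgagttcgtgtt
*Calr*, chr8:84847063-84847105 (-): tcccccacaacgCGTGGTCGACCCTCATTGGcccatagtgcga
*Pdia6*, chr12:17266479-17266521 (+): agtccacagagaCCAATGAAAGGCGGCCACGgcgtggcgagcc
*Syvn1*, chr19:6046520-6046562 (+): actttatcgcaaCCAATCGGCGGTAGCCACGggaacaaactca
*Canx*, chr11:50325788-50325830 (-): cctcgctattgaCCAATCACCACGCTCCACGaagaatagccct
*Dnajc3*, chr14:118937815-118937857 (+): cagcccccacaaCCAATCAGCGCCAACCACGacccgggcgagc

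Of these 9 genes, 7 were higher in EtOH-fed KO than in EtOH-fed WT mice, and *Canx* and *Dnajc3* did not pass the test. Of the 26 matched genes without an ERSE in this window, 6 were higher. Counted from the RefSeq start that defines each promoter, which differs from the gene start of the GENCODE annotation, the *Derl3* match ends 138 bases upstream and the *Hspa5* match 47 bases upstream. Outside the 40 genes, 12 tested genes held an ERSE, and 1 of them (8.33%) was higher, against 4.55% of the 10716 tested genes with a promoter in the set. It was *Ero1b*, which encodes an oxidase that recharges protein disulfide isomerases. It is named here because it was the single one.

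*Derl3* showed the largest difference of the 40 genes between EtOH-fed KO and EtOH-fed WT livers. It encodes derlin-3, a membrane protein of the ERAD channel that is known as an ATF6 and XBP1 target (ENSMUSG00000009092, GRCm38, chr10:75893413-75895941, plus strand). In pair-fed WT mice 1 to 4 its values were 35, 27, 28 and 45. In pair-fed KO mice 1 to 5 they were 95, 229, 151, 55 and 201. In EtOH-fed WT mice 1 to 5 they were 56, 100, 101, 187 and 48, and in EtOH-fed KO mice 1, 2, 4 and 5 they were 1733, 1010, 569 and 980.

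All 4 EtOH-fed KO mice thus lay above the other 14 mice, and all 4 pair-fed WT mice lay below the other 14. Pair-fed KO and EtOH-fed WT mice overlapped over nearly their whole range. EtOH-fed KO mice were 11.3-fold above EtOH-fed WT mice (log2 fold change 3.49, SE 0.37, adjusted p = 0.000511), the third-highest log2 fold change of all genes (rank 3 of 15052). Without EtOH-fed KO mouse 1 the log2 fold change was 3.22 (adjusted p = 0.00351), and over all 16 alternative settings it ranged from 3.22 to 3.76 and passed the test in each. The 6 to 27 estimated reads per pair-fed WT mouse make the low end of the range imprecise, whereas the EtOH-fed KO libraries held 139 to 2462 reads of *Derl3*. No exon base of *Derl3* is shared with another annotated gene.

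**Figure D1:**
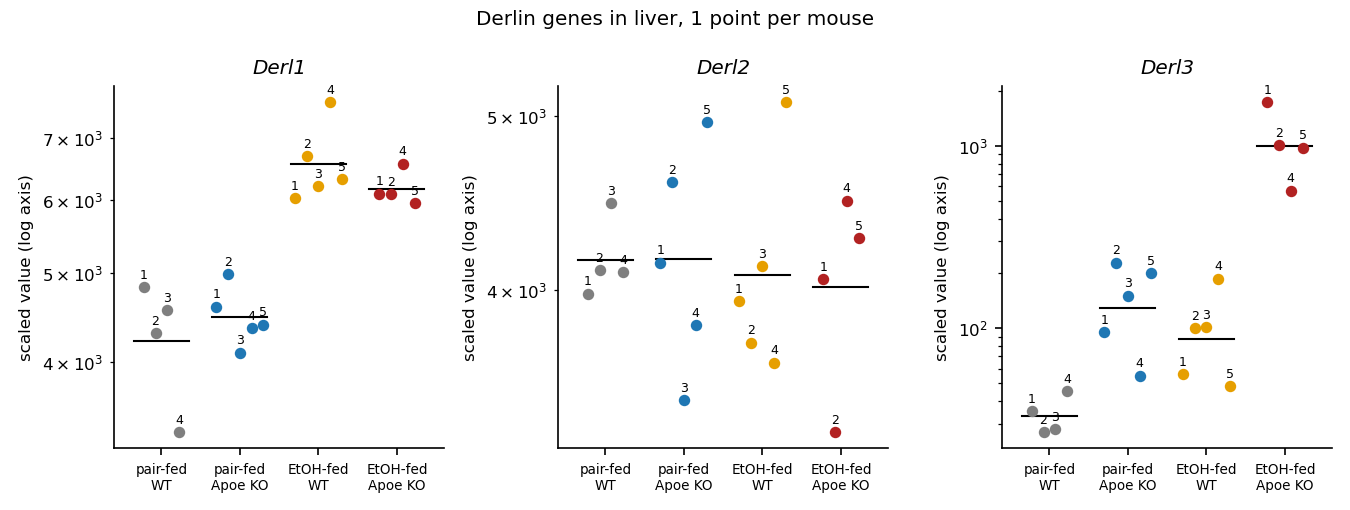
Scaled values of the 3 derlin genes on log axes with a separate range for each gene, with 1 numbered point per mouse and a line at the geometric mean of each group. *Derl3* runs from 27 in a pair-fed WT mouse to 1733 in an EtOH-fed KO mouse, *Derl1* follows the diet in both genotypes, and the groups of *Derl2* overlap.

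*Derl1* and *Derl2* encode the other derlins, which act in the same retrotranslocation step. *Derl1* was at 6017 to 7646 in EtOH-fed WT and at 5944 to 6562 in EtOH-fed KO mice, and the groups overlapped (log2 fold change -0.09, SE 0.098, adjusted p = 0.698). *Derl2* was at 3645 to 5089 and 3335 to 4487 in the same groups (log2 fold change -0.02, SE 0.12, adjusted p = 0.948). Both log2 fold changes were within 1 SE of 0, and *Derl3* was the derlin that differed.

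Among the other ERAD genes, *Syvn1* alone passed the test between the EtOH-fed groups. It encodes the ubiquitin ligase HRD1, which marks substrates at the retrotranslocation channel. Its values were 2944, 2971, 3020, 3463 and 5050 in EtOH-fed WT and 5143, 4330, 5842 and 7875 in EtOH-fed KO mice. WT mouse 5 lay above KO mouse 2, so the groups overlapped, and the difference (log2 fold change 0.73, SE 0.19, adjusted p = 0.0413) was lost in 8 of 16 alternative settings. *Sel1l*, the partner that holds HRD1 in place, was at 4728 to 6742 and 6651 to 7802 (log2 fold change 0.34, adjusted p = 0.102). *Herpud1*, which assembles HRD1 complexes, and the mannosidase-like lectins *Edem1* and *Edem2* had log2 fold changes of 0.10, 0.11 and 0.18 and did not pass the test. Of a further 21 ERAD genes, among them the segregase *Vcp*, the lectin *Os9* and the ubiquitin-conjugating enzyme *Ube2j1*, 0 passed limma's test in either direction in this comparison, nor by voom, with log2 fold changes from -0.19 to 0.27. At an unadjusted p under 0.05, 2 were higher, against 2845 of all 15052 genes in either direction. With 4.25% of all genes called higher, a count of 0 among 21 is near the background.

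Taking all 40 genes, 15 (37.5%) were higher and 0 lower between the EtOH-fed KO and WT groups, against 4.25% and 0.445% of all genes. At an unadjusted p under 0.05, 17 were higher and 1 lower, against 2845 of all 15052 genes in either direction. Voom on estimated reads also called 15 higher and 0 lower. In 14 of the 40 genes the lowest KO value lay above the highest WT value, which held for 7.12% of all genes. The median log2 fold change was 0.28 over the 40 genes and 0.107 over all genes. Without EtOH-fed KO mouse 1, 11 of the 40 were higher. With median-of-ratios scaling, which moved the median of all genes to -0.02, 10 of the 40 were higher and their median was 0.15. Under that scaling 380 of all genes were higher and 126 lower, against 639 and 67 before.

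**Figure D2:**
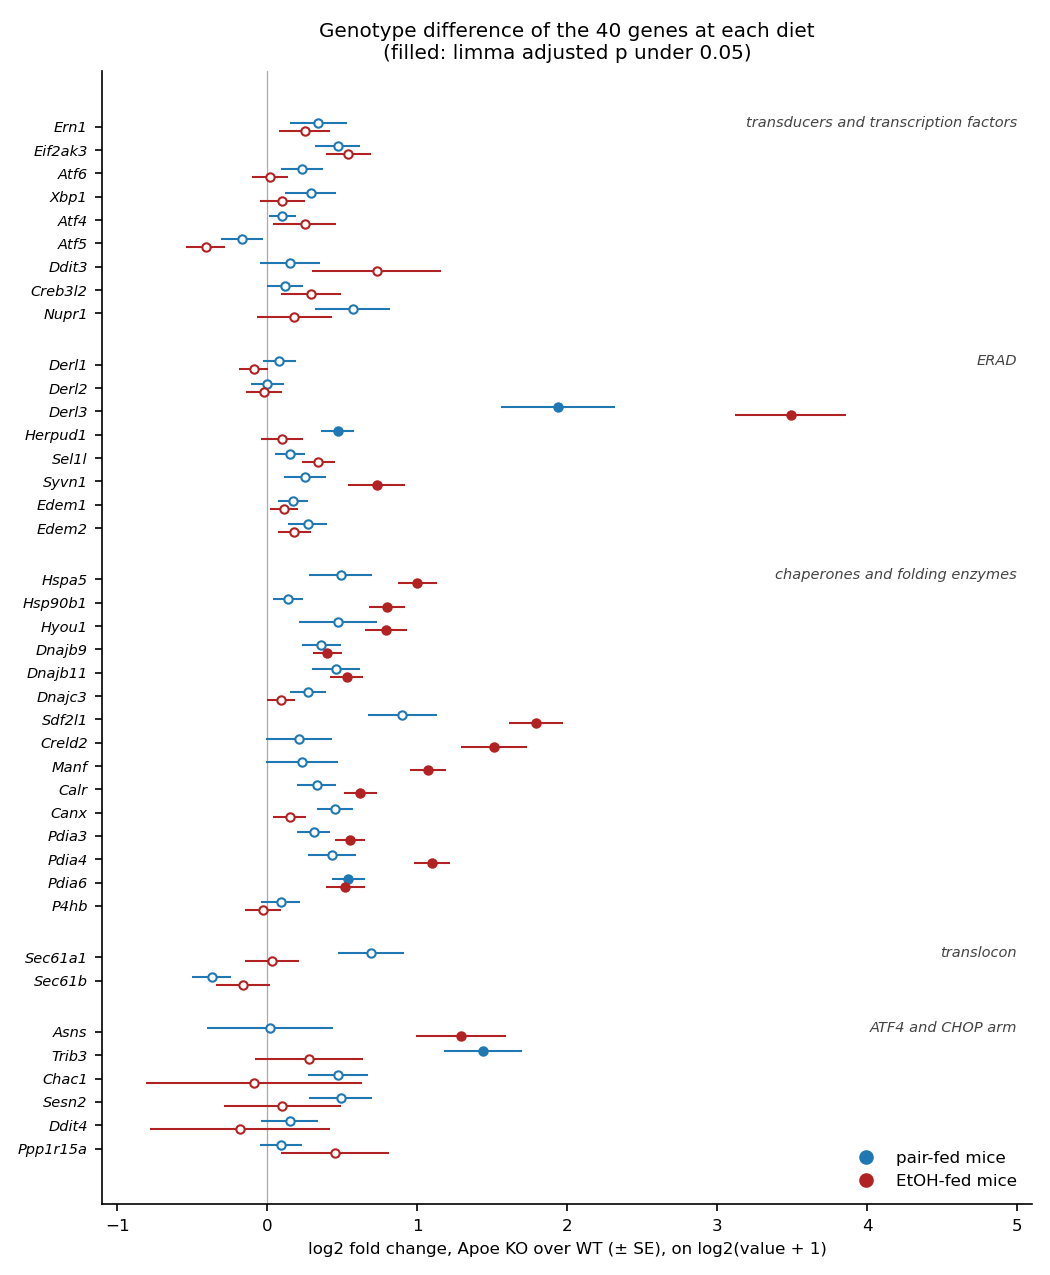
Log2 fold change of KO over WT for each of the 40 genes, ordered by role, in pair-fed mice (blue) and EtOH-fed mice (red), with bars of 1 SE and filled points for an adjusted p under 0.05. In EtOH-fed mice the filled points are 12 of 15 chaperone and folding genes, *Derl3*, *Syvn1* and *Asns*, and *Derl3* stands farthest to the right at both diets.

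Chaperones and folding enzymes gave most of the calls between the EtOH-fed groups. Of 15 such genes, 12 were higher in KO mice, 0 were lower and 3 did not pass the test, with a median log2 fold change of 0.62. Over all genes, 4.25% were called higher and the median was 0.107. In these 12 genes the groups did not overlap, which held for 7.12% of all genes. The calls and the lack of overlap come from the same mice. *Hspa5*, which encodes BiP, the chaperone that also holds the sensors inactive, was at 25689, 25222, 25374, 36202 and 26738 in EtOH-fed WT and at 62093, 56736, 51042 and 51139 in EtOH-fed KO mice. WT mouse 4 stood above the other WT mice but below every KO mouse, and the difference was 2.0-fold (log2 fold change 1.0, SE 0.13, adjusted p = 0.0016).

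*Hsp90b1*, which encodes GRP94, the HSP90 of the endoplasmic reticulum, was at 15660 to 20577 in EtOH-fed WT and at 35161, 32621, 27834 and 29210 in EtOH-fed KO mice (log2 fold change 0.80, SE 0.12, adjusted p = 0.00358). In the pair-fed groups it was at 16382 to 18889 in WT and 17238 to 21821 in KO mice, so the EtOH-fed KO mice stood apart from the other 3 groups. The nucleotide exchange factor *Hyou1* was at 3611 to 5822 in EtOH-fed WT and 6960 to 8763 in EtOH-fed KO mice (log2 fold change 0.79, SE 0.14, adjusted p = 0.00746).

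*Sdf2l1* and *Creld2* had the next-largest differences of the 40 genes after *Derl3*. *Sdf2l1*, a component of the BiP and ERdj3 complex that limits aggregation, was at 370, 319, 329, 509 and 396 in EtOH-fed WT and at 1691, 919, 1347 and 1415 in EtOH-fed KO mice (log2 fold change 1.79, SE 0.18, adjusted p = 0.000399). *Creld2*, an ER protein with a thiol isomerase motif, was at 1549, 1116, 1248, 1769 and 2527 against 6039, 4063, 3304 and 4964 (log2 fold change 1.51, SE 0.22, adjusted p = 0.00303). *Manf*, a stress-induced factor retained in or secreted from the ER, was at 2267 to 3268 against 5134 to 6625 (log2 fold change 1.07, SE 0.12, adjusted p = 0.000807). In each of these genes every EtOH-fed KO mouse lay above every EtOH-fed WT mouse.

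The protein disulfide isomerases, which form and rearrange disulfide bonds, were not uniform. *Pdia4* was at 4982 to 7154 in EtOH-fed WT and at 10870 to 13959 in EtOH-fed KO mice (log2 fold change 1.10, SE 0.12, adjusted p = 0.000552). *Pdia3*, which works on glycoproteins with the lectins calnexin and calreticulin, and *Pdia6* had smaller differences (0.55 and 0.52, adjusted p = 0.00929 and 0.0348). *P4hb*, which encodes the founding disulfide isomerase, was at 38471 to 52433 and 43718 to 48948 and did not pass the test (log2 fold change -0.03, adjusted p = 0.938).

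The lectin pair also split. Calreticulin (*Calr*) was at 15233 to 20648 in EtOH-fed WT and at 25070 to 27308 in EtOH-fed KO mice (log2 fold change 0.62, adjusted p = 0.00805), whereas calnexin (*Canx*) was at 8649 to 11023 and 10159 to 12773 (log2 fold change 0.15, adjusted p = 0.516). Of the DnaJ co-chaperones that deliver clients to BiP, *Dnajb11* and *Dnajb9* were higher by 0.53 and 0.40 on the log2 scale (adjusted p = 0.0195 and 0.0339), and *Dnajc3* did not pass the test (0.09, adjusted p = 0.675). The Sec61 channel genes *Sec61a1* and *Sec61b*, through which new proteins enter the ER, had log2 fold changes of 0.03 and -0.16 and did not pass the test.

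**Figure D3:**
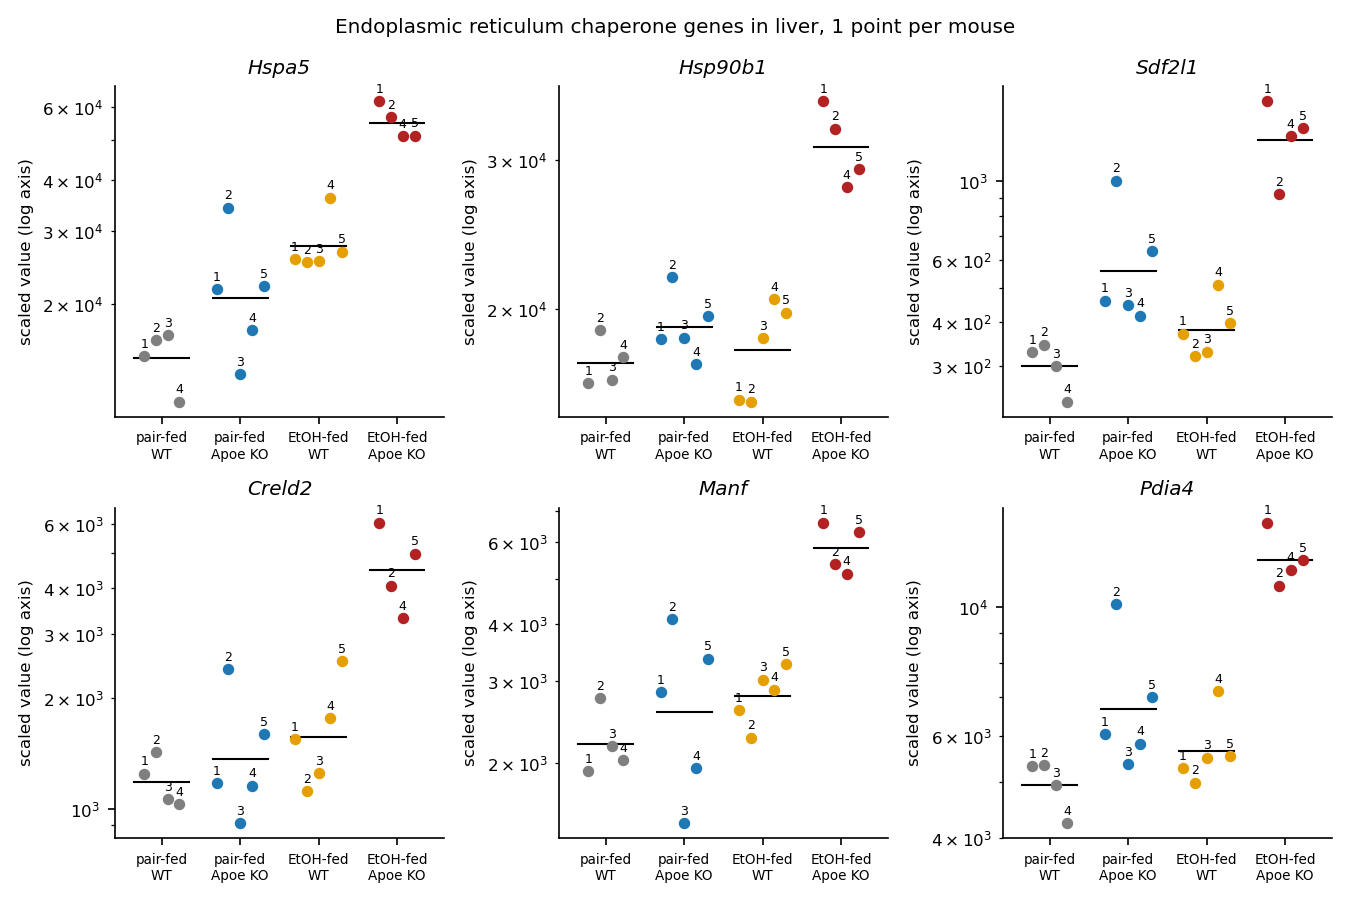
Scaled values of 6 chaperone and folding genes on log axes with a separate range for each gene, with 1 numbered point per mouse and a line at the geometric mean of each group. In all 6 genes the 4 EtOH-fed KO mice lie above the 5 EtOH-fed WT mice, and pair-fed KO mouse 2 lies above the other 4 mice of its group.

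Set against the known targets of each branch, *Derl3* had a larger log2 fold change than any gene on the ATF6, XBP1 or ATF4 list. Log2 fold changes were above 0 in 11 of 11 ATF6, 8 of 11 XBP1 and 6 of 9 ATF4 targets, and 0 were called lower in each list. Over all genes, 4.25% were called higher. Of 11 ATF6 targets, 9 were higher between the EtOH-fed groups (81.8%, median log2 fold change 0.80), and *Xbp1* and *Herpud1* did not pass the test (both 0.10). Of 11 XBP1 targets, 3 were higher (*Syvn1*, *Pdia6* and *Dnajb9*), with a median of 0.11. Of 9 ATF4 targets, 1 was higher (*Asns*), with a median of 0.18. These lists were written from general knowledge but with earlier results of these data known. Some genes respond to more than 1 factor, but each listed gene was placed on 1 list. The contrast between the lists depends on that choice. The ATF6 count was 8 without EtOH-fed KO mouse 1 and 8 or 9 over the 16 alternative settings, whereas the XBP1 count was 0 without that mouse and ranged from 0 to 4. It was also 0 without EtOH-fed KO mouse 4 or 5, without EtOH-fed WT mouse 1 or 3 and with median-of-ratios scaling.

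The mean of log2(value + 1) over each target list was also taken for each mouse, relative to pair-fed WT mice, as a description with no test. For ATF6 targets it was 0.16 to 0.53 in EtOH-fed WT and 1.03 to 1.35 in EtOH-fed KO mice. For XBP1 targets the same groups were at 0.13 to 0.42 and 0.28 to 0.53, and for ATF4 targets at 0.99 to 2.67 and 1.76 to 2.57. The EtOH-fed genotypes thus stood apart in the ATF6 targets and overlapped in the other lists. As 9 of the 11 ATF6 targets had been called on these same mice, this restates the calls and adds no further support. Among the EtOH-fed KO mice, mouse 1 had the highest value in 10 of 11 ATF6 targets and in *Derl3*, and mouse 4 had the highest value in 7 of 9 ATF4 targets.

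**Figure D4:**
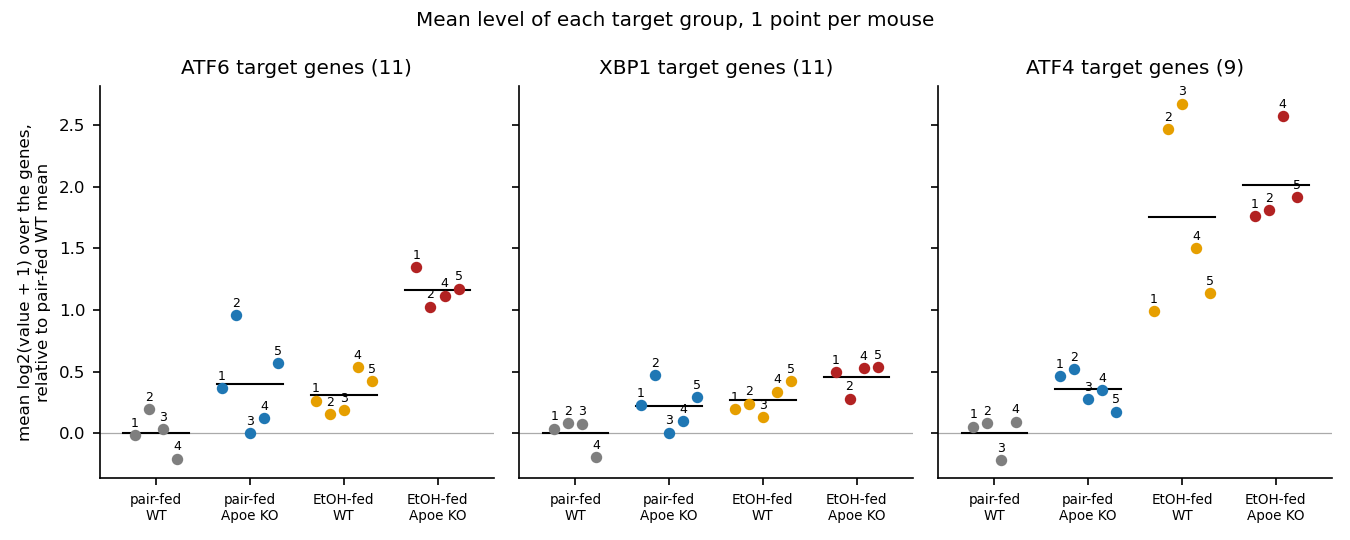
Mean log2(value + 1) over 11 ATF6, 11 XBP1 and 9 ATF4 target genes, relative to the mean of pair-fed WT mice, with 1 numbered point per mouse and a line at each group's mean. In the ATF6 panel the 4 EtOH-fed KO mice (1.03 to 1.35) lie above the other 14 mice, and in the ATF4 panel both EtOH-fed groups lie above both pair-fed groups.

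Markers of some other liver cells differed between the EtOH-fed groups as well. The summed value of 11 macrophage and Kupffer cell markers was 6872 to 12598 in EtOH-fed WT and 17155 to 30381 in EtOH-fed KO mice, and that of 9 stellate cell and fibroblast markers was 11597 to 18983 and 21820 to 39689. All 11 macrophage markers were called higher in KO mice, whereas of the 9 stellate cell markers the 3 collagens alone were (*Col1a1*, *Col3a1* and *Col1a2*, log2 fold changes 2.0, 1.75 and 1.45) and the other 6 did not pass the test. The summed value of 6 hepatocyte markers overlapped, at 2056789 to 3605709 and 2187631 to 3095810. So did those of endothelial (5679 to 7642 and 5464 to 9125) and cholangiocyte markers (1669 to 3818 and 2705 to 8719). T and NK cell markers overlapped too (109 to 178 and 98 to 348). Of 7 neutrophil markers, *S100a8* and *S100a9* alone were in the table, with low sums that overlapped (58 to 95 and 39 to 226). Neutrophil content can therefore hardly be read from these values. Of the cholangiocyte markers, *Krt19* alone was called higher (log2 fold change 2.05, adjusted p = 0.0445). The part of these marker differences in the ATF6 target and *Derl3* results was not tested.

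Plasma cells, which use the same secretory machinery and are known to express *Derl3*, were examined through 11 plasma and B cell markers other than *Sdc1*, a marker that hepatocytes express too. Their summed value was 715 to 1665 in EtOH-fed WT and 1658 to 6155 in EtOH-fed KO mice, a narrow overlap. The antibody joining chain gene *Jchain* was at 76, 59, 117, 174 and 132 in EtOH-fed WT and at 177, 391, 753 and 346 in EtOH-fed KO mice 1, 2, 4 and 5. *Jchain* (log2 fold change 1.81, adjusted p = 0.0169) and the immunoglobulin genes *Ighm* (1.41, adjusted p = 0.0115) and *Igha* (1.89, adjusted p = 0.00906) were called higher in EtOH-fed KO mice, and the other 8 markers did not pass the test. The same 3 genes were called in the interaction of diet and genotype (2.74, 2.40 and 2.91 on the log2 scale). Between pair-fed KO and WT mice their log2 fold changes were -0.93, -0.99 and -1.02 and did not pass the test. With ethanol they were -0.87, -0.99 and -0.71 in WT mice, where *Ighm* alone passed. In KO mice they were 1.87, 1.40 and 2.20 with ethanol, and all passed. Their part in the *Derl3* result was not tested. Of 10 pancreatic acinar markers, another cell type rich in ERAD genes, *Cela1* alone was in the table, at 236 to 317 in EtOH-fed WT and 147 to 446 in EtOH-fed KO mice.

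Without ethanol, fewer of the genes passed the test between genotypes. Between pair-fed KO and pair-fed WT mice, which share no animal with the comparison above, 4 of the 40 genes (10.0%) were higher and 0 were lower, against 0.87% and 0.864% of all genes. At an unadjusted p under 0.05, 18 were higher and 1 lower, against 2991 of all 15052 genes in either direction. The log2 fold change was above 0 in 38 of 40 genes, with a median of 0.28 against -0.005 over all genes. *Derl3* again had the largest value (3.83-fold, log2 fold change 1.94, SE 0.38, adjusted p = 0.0208), and its groups did not overlap. *Pdia6* was at 4752 to 5815 in WT and 7208 to 9751 in KO mice (log2 fold change 0.54, adjusted p = 0.0233), and *Herpud1* was at 9523 to 11997 and 13528 to 17622 (0.47, adjusted p = 0.0495).

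*Trib3*, a pseudokinase induced by ATF4 and CHOP that restrains AKT signalling, was the fourth gene. Its values were 150, 131, 136 and 116 in pair-fed WT and 542, 388, 318, 488 and 187 in pair-fed KO mice (log2 fold change 1.44, SE 0.26, adjusted p = 0.0138). Every KO mouse lay above every WT mouse, although mouse 5 was close to them. *Sdf2l1* was at 237 to 344 in WT and at 416 to 1006 in KO mice, without overlap, and narrowly missed the threshold (0.90, adjusted p = 0.0585). Of the 11 ATF6 targets, *Herpud1* was the single one called, and pair-fed KO mouse 2 had the highest value of its group in 10 of the 11. Of the 40 genes, 0 were called without WT mouse 2, 1 without WT mouse 4 and 2 by voom on estimated reads. By voom, *Derl3* and *Trib3* lost their calls. *Herpud1* lost its call in 11 of 16 alternative settings, among them the omission of any 1 of the 5 KO mice, median-of-ratios scaling and the replicate block.

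Of the 9 sensors and transcription factors, 0 passed limma's test between genotypes in the EtOH-fed or in the pair-fed mice. With 4.25% and 0.87% of all genes called higher in these comparisons, a count of 0 among 9 is near the background. At an unadjusted p under 0.05, 1 was higher (*Eif2ak3*) and 1 lower (*Atf5*) in EtOH-fed KO mice. Over all 15052 genes, 2845 had such a p in either direction. In pair-fed KO mice 2 of the 9 were higher and 0 lower at that p, against 2991 of all genes in either direction. Between EtOH-fed KO and WT mice the log2 fold change was 0.02 (SE 0.12) for *Atf6*, 0.10 (SE 0.15) for *Xbp1* and 0.25 (SE 0.17) for *Ern1*. *Eif2ak3* was at 392 to 621 in EtOH-fed WT and 631 to 828 in EtOH-fed KO mice, without overlap, and missed the threshold (0.54, adjusted p = 0.0615), which it passed by voom on estimated reads (0.58, adjusted p = 0.0486) and with all 4 groups in the fit (0.54, adjusted p = 0.0358). *Atf4* had a log2 fold change of 0.25 (SE 0.21), *Ddit3*, which encodes CHOP, 0.73 (SE 0.43), *Creb3l2* 0.29 (SE 0.20) and the stress-induced cofactor *Nupr1* 0.18 (SE 0.25). *Atf5* was lower without passing the test (-0.41, SE 0.13, adjusted p = 0.0981).

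In WT mice, the chronic-plus-binge ethanol diet raised 6 of 9 sensors and transcription factors, 5 of 9 ATF4 targets, 5 of 15 chaperones and folding enzymes and 3 of 8 ERAD genes. With ethanol, 16 of the 40 were higher and 0 lower in WT mice, against 6.19% and 6.52% of all genes. At an unadjusted p under 0.05, 23 were higher and 0 lower, against 4236 of all 15052 genes in either direction. Voom on estimated reads called 13 higher and 0 lower. Among the sensors and transcription factors, the largest folds were those of *Nupr1* at 8.84-fold, *Ddit3* at 4.32-fold and *Atf5* at 3.68-fold (adjusted p = 4.17e-05, 0.00807 and 1.87e-06). *Ern1*, *Eif2ak3* and *Atf6* were higher by 0.81, 0.67 and 0.65 on the log2 scale. *Atf4* had a log2 fold change of 0.60 and did not pass the test (adjusted p = 0.0827), and *Xbp1* had 0.10.

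*Trib3* had the largest diet difference of the 40 genes in WT mice, 20.7-fold (log2 fold change 4.37, SE 0.36, adjusted p = 1.39e-05). It was at 116 to 150 in pair-fed WT mice and at 1024, 3924, 5451, 3506 and 2119 in EtOH-fed WT mice. *Atf5*, a transcription factor of the mitochondrial stress response whose mRNA is translated when eIF2α is phosphorylated, was at 10433 to 13210 and at 37285 to 48288 (log2 fold change 1.88, SE 0.12). *Ddit4*, an inhibitor of mTORC1, was also higher (log2 fold change 1.78, SE 0.55, adjusted p = 0.0499), but lost its call in 7 of 16 alternative settings.

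Several ATF4 targets varied widely among the EtOH-fed WT mice. *Ddit3* was at 411, 1834, 2840, 723 and 1105, and *Ddit4* at 541, 2389, 3239, 545 and 325. *Chac1*, which degrades glutathione, was at 173, 649, 555, 119 and 50, and *Ppp1r15a*, which directs a phosphatase to eIF2α, at 286, 857, 1030, 267 and 468. In each of these 4 genes mice 2 and 3 were the highest, and in *Chac1* the other 3 mice did not exceed the pair-fed WT range of 170 to 254, with mice 4 and 5 below it. *Chac1* and *Ppp1r15a* did not pass the test in WT mice (adjusted p = 0.954 and 0.243). In EtOH-fed KO mice, *Chac1* was at 774 in mouse 4 and at 100 to 158 in the other 3, and *Ddit4* at 1969 in mouse 4 and at 563 to 710 in the other 3.

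**Figure D5:**
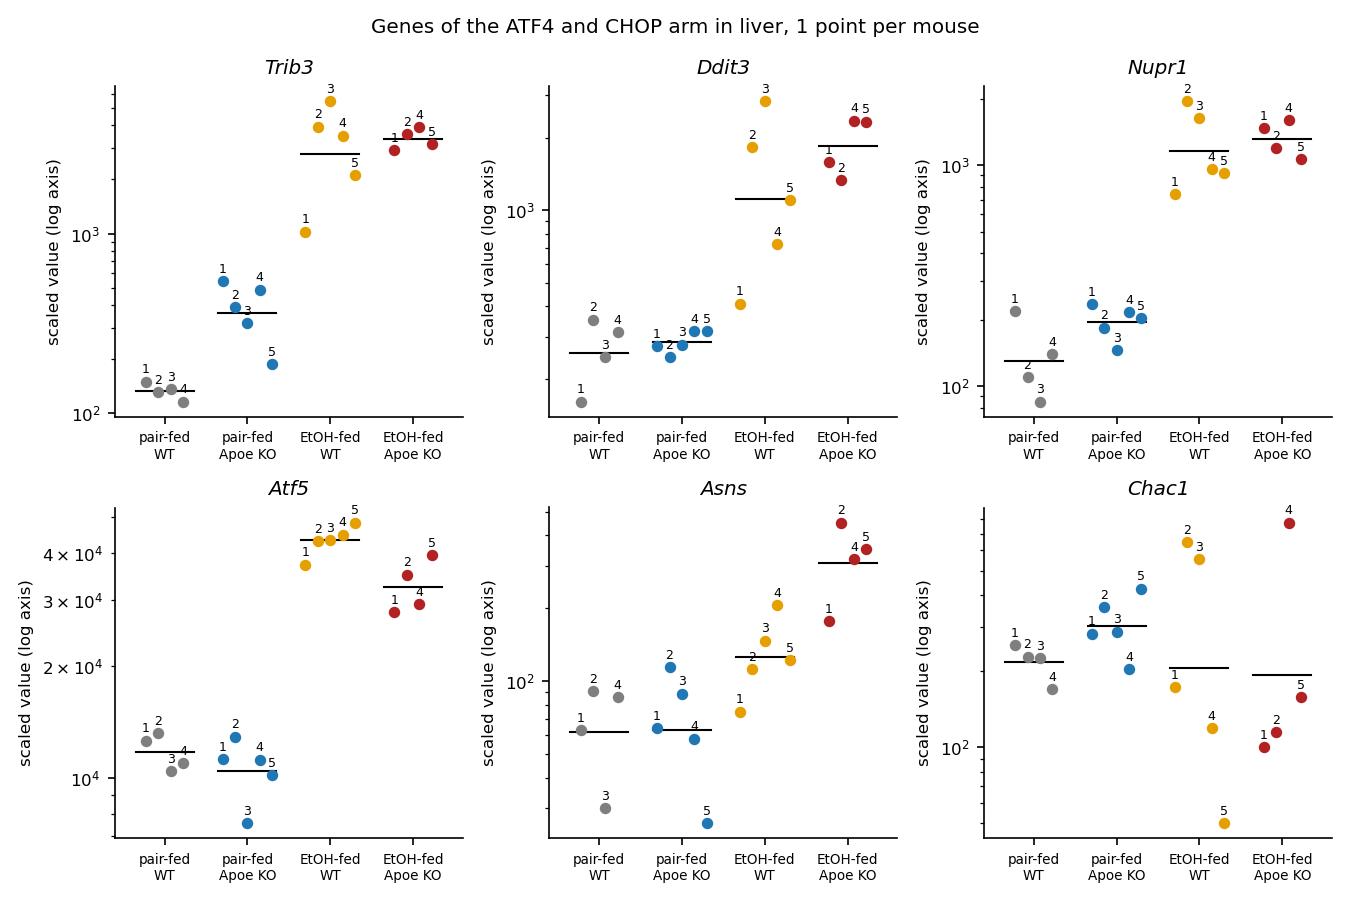
Scaled values of 6 genes of the ATF4 and CHOP arm on log axes with a separate range for each gene, with 1 numbered point per mouse and a line at the geometric mean of each group. *Trib3*, *Ddit3*, *Nupr1* and *Atf5* are higher in both EtOH-fed groups, *Asns* has its highest group mean in EtOH-fed KO mice, and *Chac1* runs from 50 to 774 within the EtOH-fed mice.

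The composite site of ATF4 and C/EBP factors, searched as TTGCATCA, was found on either strand in 3 of the 35 matched genes (8.57%) and in 1.03% of all genes with a promoter in the set. They are shown because these 3 genes gave different readings under the same diet. In WT mice *Nupr1* was higher with ethanol, and *Chac1* and *Herpud1* did not pass the test. The motif is in capitals.
*Nupr1*, chr7:126625561-126625592 (-): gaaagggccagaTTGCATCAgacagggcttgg
*Chac1*, chr2:119351037-119351068 (+): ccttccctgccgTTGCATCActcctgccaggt
*Herpud1*, chr8:94386305-94386336 (+): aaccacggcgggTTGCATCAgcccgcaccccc

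Of the ERAD and folding genes in WT mice, *Hspa5* had 11552 to 16772 pair-fed and 25222 to 36202 EtOH-fed (log2 fold change 0.90, SE 0.14, adjusted p = 0.00167). *Hyou1*, *Dnajb11*, *Dnajb9* and *Dnajc3* were higher by 0.59, 0.56, 0.54 and 0.35, and *Derl1* and *Syvn1* by 0.63 and 0.65. *Derl3* was 2.6-fold higher (log2 fold change 1.38, SE 0.37, adjusted p = 0.0282), and lost its call in 6 of 16 alternative settings. *Sdf2l1*, *Creld2*, *Manf*, *Pdia4* and *Hsp90b1* had log2 fold changes of 0.34, 0.41, 0.34, 0.19 and 0.05 and did not pass the test in WT mice.

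In KO mice, the same diet raised 7 of 9 sensors and transcription factors, 7 of 9 ATF4 targets, 9 of 15 chaperones and folding enzymes and 4 of 8 ERAD genes. Of the 40 genes, 24 (60.0%) were higher and 1 (*Herpud1*) lower in EtOH-fed than in pair-fed KO mice, against 16.3% and 6.92% of all genes. With median-of-ratios scaling, 23 of the 40 were higher and 2 lower, and the calls over all genes were 1656 higher and 1607 lower, against 2446 and 1042 before. The ATF4 targets were led by *Trib3* at 9.27-fold, *Nupr1* at 6.75-fold and *Ddit3* at 6.46-fold. *Derl3* was 7.62-fold higher (log2 fold change 2.93, SE 0.39, adjusted p = 0.000208). The chaperones and folding enzymes that rose included *Creld2* by 1.71, *Hspa5* by 1.41, *Sdf2l1* by 1.23 and *Manf* by 1.18 on the log2 scale. *Herpud1* was at 13528 to 17622 pair-fed and 10493 to 12730 EtOH-fed (log2 fold change -0.41, SE 0.10, adjusted p = 0.0111). This comparison shares its EtOH-fed mice with the genotype comparison above.

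*Asns*, which encodes asparagine synthetase and is a standard ATF4 target, was the member of that arm that differed between the EtOH-fed genotypes. It was at 75, 112, 147, 206 and 122 in EtOH-fed WT and at 177, 451, 319 and 350 in EtOH-fed KO mice (2.44-fold, adjusted p = 0.0296). KO mouse 1 lay below WT mouse 4, and the call was lost in 7 of 16 alternative settings. In pair-fed mice it was at 30 to 91 in WT and 26 to 114 in KO mice. *Ppp1r15a* and *Atf4* were higher with ethanol in KO mice (log2 fold changes 1.01 and 0.75, adjusted p = 0.000986 and 6.76e-05). *Chac1* had a log2 fold change of -0.63 that did not pass the test (adjusted p = 0.359), and without EtOH-fed KO mouse 4 it was -1.30 and passed it (adjusted p = 0.00306).

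Whether the genotype difference itself depended on the diet was tested as an interaction on all 18 mice. Of the 40 genes, 2 (5.0%) had a larger genotype difference in EtOH-fed than in pair-fed mice and 0 a smaller one, against 2.6% and 0.239% of all genes. At an unadjusted p under 0.05, 7 had a larger and 3 a smaller difference, against 2451 of all 15052 genes in either direction. The 2 genes were *Hsp90b1* (0.66 on the log2 scale, SE 0.15, adjusted p = 0.0228) and *Creld2* (1.30, SE 0.35, adjusted p = 0.0458). *Derl3* did not pass this test (1.55, SE 0.57, adjusted p = 0.161), nor did *Sdf2l1*, *Manf*, *Pdia4* or *Hspa5* (0.89, 0.84, 0.66 and 0.51, adjusted p = 0.139, 0.138, 0.0981 and 0.358). The count was 0 with median-of-ratios scaling (294 larger and 84 smaller over all genes, against 392 and 36 before), without pair-fed WT mouse 2 or 4, and without EtOH-fed WT mouse 1. It was 5 without pair-fed KO mouse 2, when *Sdf2l1*, *Manf* and *Pdia4* passed as well, and 1 without EtOH-fed KO mouse 1.

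Further genes of the same pathways were called between the EtOH-fed genotypes at shares near that of all genes (4.25%). Of 39 further folding and secretory genes, 1 was higher between them (*Ero1b*, log2 fold change 0.45, adjusted p = 0.0239), and of 31 further genes of the ATF4 and integrated stress response, 1 was higher (*Phgdh*). Of the 39, 6 were higher and 0 lower at an unadjusted p under 0.05, and of the 31, 11 were higher and 1 lower. Over all 15052 genes, 2845 had such a p in either direction. *Phgdh*, the entry enzyme of serine synthesis, was at 22 to 88 in EtOH-fed WT and 82 to 426 in EtOH-fed KO mice (log2 fold change 2.23, SE 0.47, adjusted p = 0.0167), with a narrow overlap, and at 86 to 195 and 31 to 99 in the pair-fed WT and KO mice. With ethanol it fell by 1.75 on the log2 scale in WT mice and rose by 1.82 in KO mice (adjusted p = 0.0117 and 0.00908). Its interaction was 3.57 (SE 0.64, adjusted p = 0.00627), and *Slc7a5*, a subunit of an amino acid exchanger, was the other further gene with a call in that test (1.30, adjusted p = 0.0406). *Slc7a5* is named for that reason, after its values were seen. With ethanol, 15 of the 31 were higher and 3 lower in WT mice, against 6.19% and 6.52% of all genes. In KO mice 14 were higher and 4 lower with ethanol, against 16.3% and 6.92% of all genes.

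Of the 40 genes, 29 passed the test in at least 1 of the 5 comparisons. The 11 that passed in none were *Xbp1*, *Creb3l2*, *Derl2*, *Edem1*, *Edem2*, *Canx*, *P4hb*, *Sec61a1*, *Sec61b*, *Chac1* and *Sesn2*. *Sesn2*, a stress-induced regulator of mTORC1, was at 244 to 1166 in EtOH-fed WT and 494 to 999 in EtOH-fed KO mice. Exon bases are shared with another annotated gene in 13 of the 40, up to 10.3% of them in *Hsp90b1*, and it is not stated whether reads were counted by strand.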

How the data were processed

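Bulk liver RNA-seq of 18 mice was analysed. Per the labels and the methods, polyA RNA was sequenced and reads were processed with Trimmomatic, HISAT2 (GRCm38) and FeatureCounts. Versions are not given in the sources used here. The authors deposited 1 table whose values per mouse are a signal: read counts brought to almost the same sum in each mouse and rounded, by a step that is not described. Its columns of the authors' DESeq2 comparison (mean, fold change, SE, p-values, ranks) were not used. Of 15247 lines, 195 repeated a gene and were dropped. The lowest mean value of a gene was 12.1.

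Values were tested on log2(value + 1) with limma 3.58.1 (R 4.3.3; empirical Bayes, intensity trend; Benjamini-Hochberg over 15052 genes), using the mice of the groups compared, or all 18 for the interaction. A gene was called at an adjusted p under 0.05. Fold changes are on this scale and understate changes of low genes. Apart from voom as an alternative, no count test was run, because whole reads could not be recovered in every mouse. Units per read were estimated from the spacing of values up to 200. For voom, EtOH-fed WT mice 2 and 5, which were not resolved, entered with their scaled values. The scripts were tested on simulated data. Replicates are single mice. The 40 genes, the role and target lists and the markers were chosen with earlier results of these data known. Genes named by rule were the 29 called in any comparison, the derlins, the sensors and called genes of the further pathway lists. The remaining members are named to account for all 40, *Chac1* with its values after they were seen, and *Vcp*, *Os9*, *Ube2j1* and the cell markers as examples of their lists. Motifs were searched on both strands: the ERSE, a variant (ATTGG, 1 base, CCACG; 2 of 35 genes, 0.0444% of all), TGACGTG (1 of 35, 2.22% of all) and TTGCATCA. Alternatives were median-of-ratios scaling, a mean value of at least 50, a pseudocount of 10, voom on estimated reads, sample weights, the replicate block, all 4 groups in the fit and leaving out each mouse. Python 3.11.15, numpy 2.4.6, pandas 2.3.3 and matplotlib 3.10.9 were used.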

Additional observations from a re-analysis of the deposited data

Results flagged for a closer look

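Among the EtOH-fed WT mice, mouse 4 stood apart as the highest in *Hspa5* and in *Pdia4*. On log2(value + 1), its gap to the next mouse was 0.838 of the group's range in *Hspa5* and 0.712 in *Pdia4*. These were 2 of 124 groups of values examined over 31 genes, of which about 6.2 would be set apart by chance at 1 in 20. Both values lay below those of all 4 EtOH-fed *Apoe* KO mice.

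The genotype difference was larger in EtOH-fed than in pair-fed mice for *Hsp90b1*, by 0.66 on the log2 scale, and for *Creld2*, by 1.30, in limma's test of the interaction on all 18 mice. *Hsp90b1* passed that test in 20 of 24 alternative settings and *Creld2* in 9 of 24.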

How the results depend on the processing

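No gene named reversed its direction among called values under any alternative run. Between the EtOH-fed genotypes, 9 of the 15 calls (*Calr*, *Creld2*, *Derl3*, *Hsp90b1*, *Hspa5*, *Hyou1*, *Manf*, *Pdia4* and *Sdf2l1*) were made in all 16 alternatives. The count of higher genes was 10 with median-of-ratios scaling and 10 to 16 when 1 mouse was left out, and 0 were lower in each of those. Between the pair-fed genotypes it was 2 by voom on estimated reads and 0 to 5 when 1 mouse was left out, so none of its 4 calls was made in all 16. With ethanol in WT mice, 10 of 16 calls were made in all alternatives, and the count was 13 to 17 when 1 mouse was left out. With ethanol in *Apoe* KO mice, 23 of 25 were, the count of higher genes was 23 to 25, and that of lower genes was 1 or 2. It was 2 with median-of-ratios scaling, where *Canx* joined *Herpud1*. By voom, and without EtOH-fed *Apoe* KO mouse 4, *Chac1* joined *Herpud1*. The interaction count was 0 with median-of-ratios scaling, 1 by voom and 0 to 5 when 1 mouse was left out, with 0 to 1 genes of smaller difference (*Trib3*, without EtOH-fed WT mouse 1). The cause of these changes was not tested.

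Median-of-ratios scaling moved the median of all genes from 0.107 to -0.02 between the EtOH-fed genotypes, where the calls over all genes went from 639 higher and 67 lower (90.5% higher) to 380 and 126 (75.1%). In *Apoe* KO mice with ethanol they went from 2446 and 1042 (70.1%) to 1656 and 1607 (50.8%), and in the interaction from 392 and 36 (91.6%) to 294 and 84 (77.8%). Between the EtOH-fed genotypes, the ATF6 targets with a log2 fold change above 0 were 11 of 11, or 9 of 11 with median-of-ratios scaling.

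Mice share a number across groups in the labels, but same-numbered mice are different animals, and not every pair deviated together (correlations between the EtOH-fed genotypes of 0.188, -0.0242, 0.23 and 0.144, and between the pair-fed genotypes from -0.0508 to 0.0706). Comparisons of 2 groups with the number as a replicate block kept only mice whose number occurred in both groups. This left out EtOH-fed WT mouse 3 between the EtOH-fed genotypes and pair-fed KO mouse 5 between the pair-fed genotypes. With ethanol in WT mice it left out EtOH-fed WT mouse 5. With this block, 14 of the 40 genes were higher and 1 lower (*Atf5*) between the EtOH-fed genotypes, where *Dnajb9* lost its call. With ethanol in WT mice 14 were higher, and *Eif2ak3*, *Hyou1* and *Dnajc3* lost theirs. Between the pair-fed genotypes the count stayed at 4, but *Herpud1* lost its call and another gene was called in its place. Over all genes the block gave 961 higher and 122 lower between the EtOH-fed genotypes (639 and 67 without it), 189 and 203 between the pair-fed genotypes (131 and 130) and 599 and 756 with ethanol in WT mice (931 and 981). Depth limits the low values: in pair-fed WT mouse 1, 1 read stood for 5.76 units.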
